A study of Mus musculus with 16 samples.

Results

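RNA of 10 genes of mitosis, Mki67, Top2a, Cdk1, Ccnb1, Ccna2, Gtse1, Aurkb, Birc5, Plk1 and Bub1, was followed in mouse neuronal cultures. They were chosen by symbol, as the rows of the count table whose Ensembl identifiers map to these names. They are 10 of 55335 genes in the table, and all 10 had enough counts to be among the 19479 genes tested. The cultures were perinatal forebrain neurons, and every group, the controls included, was transduced with a lentiviral vector. The groups of 4 libraries were an empty vector (Empty_Vector), a short hairpin RNA (shRNA, called the unmutated hairpin here), and that hairpin with 2 point mutations (shRNA_2bp) or with 5 point mutations (shRNA_5bp). A short hairpin RNA folds on itself and is cut by the cell into a small RNA that lowers matching transcripts. The labels used here do not give the hairpin's target, its promoter, the mouse strain or the days in culture. Nor do they state that replicate libraries are separate cultures, and p-values therefore measure the spread between these libraries, which may be technical. The question asked of these genes was whether RNA of dividing cells moves together with the other cell cycle genes.

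Mitosis is driven by the kinase CDK1 bound to cyclin B, whose activity rises as cells leave G2 and ends when the cyclin is destroyed. In most tissues the genes of this program are silent outside the cell cycle, because repressor complexes hold their promoters at E2F sites and at the cell cycle homology region, and they are switched on together in S and G2. Neurons have left the cycle for good, so in a neuronal culture these transcripts are usually read as a sign of the dividing glia, progenitors, fibroblasts or endothelial cells that a culture from brain also holds. RNA from a whole culture cannot tell a change in the number of such cells from a change in RNA per cell.

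All members were rare. Library totals ran from 33795369 to 49824569 counts, and outside Gtse1 no member reached 200 counts in a library. In CPM (counts scaled to a common library size, with TMM factors for composition) divided by the exon length in kilobases, a scale on which genes can be compared, the empty-vector means were 1.06 ± 0.205 for Gtse1, 0.714 ± 0.0534 for Plk1, 0.377 ± 0.0187 for Birc5, 0.264 ± 0.0280 for Ccna2 and 0.134 ± 0.050 for Top2a (SD, n = 4). They were 0.107 ± 0.0170 for Bub1, 0.0929 ± 0.0174 for Mki67, 0.0862 ± 0.0209 for Ccnb1, 0.0748 ± 0.0442 for Aurkb and 0.0356 ± 0.0170 for Cdk1. From Gtse1 down to Top2a the ranges of mean ± SD of neighbours in that order did not overlap, and from Top2a down to Cdk1 those of each neighbouring pair did.

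The promoters of 5 members are shown because 4 of them rose by over 1 log2 unit with the 5-mutation hairpin (Mki67, Cdk1, Ccnb1 and Top2a; Ccna2 did too but had no window at hand) and Gtse1 rose with the 2-mutation hairpin. Each line gives the 250 bases before a RefSeq start on the gene's own strand, 5′ to 3′, on GRCm38.p6. Capitals mark the cell cycle homology region forms TTTGAA and TTCGAA, the CCAAT box, and the E2F form TTGGCGC, each on either strand, so reverse matches are in capitals too.
Mki67 (chr7:135716380-135716629, minus strand): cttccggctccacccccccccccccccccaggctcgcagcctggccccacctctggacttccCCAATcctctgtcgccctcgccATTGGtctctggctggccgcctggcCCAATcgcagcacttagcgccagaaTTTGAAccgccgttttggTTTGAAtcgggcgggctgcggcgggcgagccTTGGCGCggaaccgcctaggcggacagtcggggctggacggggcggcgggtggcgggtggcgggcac
Cdk1 (chr10:69352913-69353162, minus strand): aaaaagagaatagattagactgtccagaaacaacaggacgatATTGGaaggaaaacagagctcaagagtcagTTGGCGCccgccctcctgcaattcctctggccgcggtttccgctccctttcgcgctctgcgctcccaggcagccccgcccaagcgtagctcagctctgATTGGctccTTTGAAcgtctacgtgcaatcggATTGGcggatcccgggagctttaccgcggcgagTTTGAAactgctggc
Ccnb1 (chr13:100786487-100786736, minus strand): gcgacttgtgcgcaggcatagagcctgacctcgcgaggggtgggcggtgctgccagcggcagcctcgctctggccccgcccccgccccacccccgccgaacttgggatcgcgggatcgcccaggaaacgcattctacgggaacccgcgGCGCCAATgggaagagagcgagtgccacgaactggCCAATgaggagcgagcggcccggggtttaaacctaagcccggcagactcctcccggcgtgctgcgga
Top2a (chr11:99024190-99024439, minus strand): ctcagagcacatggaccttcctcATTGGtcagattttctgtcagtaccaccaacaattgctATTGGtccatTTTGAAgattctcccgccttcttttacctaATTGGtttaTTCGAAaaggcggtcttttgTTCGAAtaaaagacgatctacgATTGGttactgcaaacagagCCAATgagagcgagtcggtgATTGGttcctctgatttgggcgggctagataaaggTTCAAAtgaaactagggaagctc
Gtse1 (chr15:85859457-85859706, plus strand): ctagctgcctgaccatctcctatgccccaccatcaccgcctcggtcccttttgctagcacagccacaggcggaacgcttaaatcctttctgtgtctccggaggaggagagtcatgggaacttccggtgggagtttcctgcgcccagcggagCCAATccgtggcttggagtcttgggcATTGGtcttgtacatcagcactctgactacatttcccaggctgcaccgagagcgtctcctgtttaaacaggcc

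Counted in RefSeq windows of 250 bases before to 50 after a start, TTTGAA lies in the windows of Mki67, Top2a, Cdk1 and Plk1 and in 17.9% of all 32851 windows. TTCGAA lies in those of Top2a and Bub1 and in 1.56% of windows. The CCAAT box, bound by the activator NF-Y, lies in those of Mki67, Top2a, Cdk1, Ccnb1, Gtse1, Plk1 and Bub1 and in 37.4% of windows. TTGGCGC lies in those of Mki67, Cdk1 and Ccnb1 and in 2.45% of windows, and in Ccnb1 it overlaps a CCAAT box as GCGCCAAT. A further E2F form, TTCCCGC, lies in 4.6% of windows and in none of the members'. Windows were at hand for 8 of the 10 members, with 2 starts for Gtse1, and not for Ccna2 and Aurkb. Neither cell cycle homology form is in the Ccnb1 and Gtse1 windows, and of the letters searched the Gtse1 windows hold the CCAAT box alone. These are matches of letters, not measured binding.

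The members did not move as a block. In edgeR's quasi-likelihood test across all genes, where a gene was called at p below 0.05 after Benjamini-Hochberg adjustment, 6 of 10 members were higher with the 5-mutation hairpin than with the empty vector, where 28.4% of all genes tested were called higher, and 1 was lower, where 26.5% were. With the 2-mutation hairpin 5 were higher (32.5% of all genes) and 1 was lower (30.8%). With the unmutated hairpin 3 were higher (20.8%) and 1 was lower (19.5%). Top2a and Ccna2 were the 2 members higher with every hairpin. Mki67, Cdk1 and Ccnb1 were called with the 5-mutation hairpin alone, Gtse1 rose with the 2-mutation hairpin and fell with the 5-mutation hairpin, and Bub1 rose with both mutated hairpins. The median log2 fold change over the 10 was 0.35, 0.58 and 0.97 with the unmutated, 2-mutation and 5-mutation hairpins, beside 0.01, -0.01 and 0.03 over all genes tested. The 3 comparisons share the 4 empty-vector libraries. Counted by libraries alone, all 4 lay above all 4 controls for 3 members with the unmutated hairpin (19.7% of genes tested), for 5 with 2 mutations (31.5%) and for 6 with 5 mutations (24.4%). All 4 lay below for 1 (18.7%), 0 (28.6%) and 0 (23.7%) of the members.

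**Figure D1:**
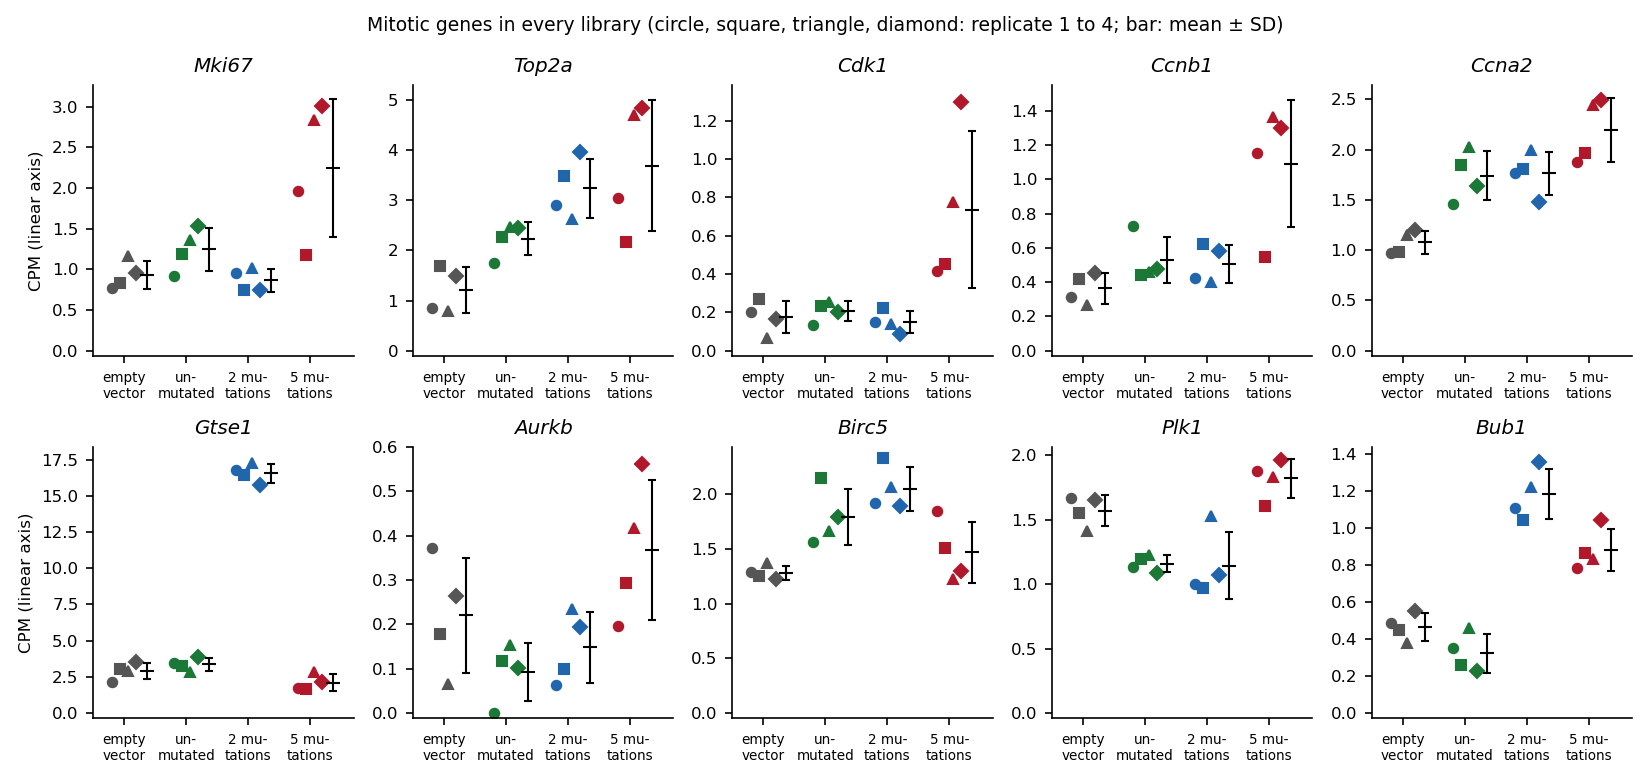
CPM of each of the 10 genes in every library on linear axes, by group, with the mean ± SD of the 4 libraries beside each group. Gtse1 lies between 15.7 and 17.2 CPM with the 2-mutation hairpin and between 1.63 and 3.89 CPM in all other libraries, while Mki67, Cdk1 and Ccnb1 are highest, and most spread, with the 5-mutation hairpin.

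Cdk1 (chr10:69335146-69352938), the kinase itself, was counted 7, 9, 3 and 7 times in empty-vector replicates 1 to 4, 5, 10, 10 and 8 times with the unmutated hairpin, and 7, 9, 6 and 4 times with the 2-mutation hairpin. With the 5-mutation hairpin the counts were 19, 23, 28 and 51, which is 0.414, 0.451, 0.778 and 1.30 CPM. All 4 of these libraries were above all 12 others. Cdk1 was 4.19 times as high as with the empty vector (log2 fold change 2.07 ± 0.42 SE, adjusted p 0.000204), the largest rise of any member with that hairpin. Its changes with the unmutated hairpin (0.29, 95% interval -0.74 to 1.31) and the 2-mutation hairpin (-0.19, interval -1.26 to 0.88) were not called, and at so few counts the intervals reach past 1 log2 unit.

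Ccnb1 (chr13:100778650-100786570) encodes cyclin B1, the partner that activates CDK1 at entry into mitosis. It was at 0.316, 0.417, 0.265 and 0.456 CPM with the empty vector, and at 1.16, 0.549, 1.36 and 1.30 CPM with the 5-mutation hairpin. Replicate 2 was the low library of that group, still above the 4 controls. The rise was 3.0-fold (log2 1.57 ± 0.29 SE, adjusted p 9.41e-05). With the unmutated and 2-mutation hairpins Ccnb1 was at 0.444 to 0.728 and 0.400 to 0.620 CPM, overlapping the controls, with log2 differences of 0.54 and 0.48 that were not called (adjusted p 0.193 and 0.192).

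Ccna2 (chr3:36564865-36572150), cyclin A2, works from S phase to early mitosis. It was at 0.976, 0.983, 1.148 and 1.20 CPM with the empty vector. With the unmutated hairpin it was at 1.46, 1.85, 2.02 and 1.64 CPM, with the 2-mutation hairpin at 1.77, 1.81, 2.0 and 1.48 CPM and with the 5-mutation hairpin at 1.874, 1.962, 2.446 and 2.50 CPM. All 12 hairpin libraries were above the 4 controls. The rises were 1.62-fold, 1.64-fold and 2.04-fold (log2 0.69 ± 0.17, 0.70 ± 0.17 and 1.01 ± 0.17 SE; adjusted p 0.00224, 0.000874 and 1.81e-05). Ccna2 shares 510 bp of exon with Exosc9 on the opposite strand, and whether the counting used strand is not given in the sources used here. Exosc9 was highest with the 2-mutation hairpin, at 53.2 ± 1.21 CPM, beside 35.1 ± 1.38 with the empty vector, 39.7 ± 2.17 with the unmutated and 39.7 ± 2.04 with the 5-mutation hairpin (SD, n = 4), and its part in the Ccna2 counts was not tested.

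The kinases and checkpoint proteins split. Plk1 (chr7:122159439-122169873), the Polo kinase that matures centrosomes and helps activate CDK1, was at 1.67, 1.55, 1.41 and 1.66 CPM with the empty vector. It was at 1.13, 1.19, 1.23 and 1.09 CPM with the unmutated hairpin, all below the controls, and at 1.003, 0.968, 1.53 and 1.07 CPM with the 2-mutation hairpin, where replicate 3 lay among the controls. Both falls were called, by 0.43 ± 0.17 and 0.46 ± 0.17 on the log2 scale (SE; adjusted p 0.0426 and 0.0205). The first call is fragile: its adjusted p was 0.0613 in DESeq2 and 0.163 without the filter on low counts, and between 0.0570 and 0.0984 when any 1 library of the 2 groups was left out, except empty-vector replicate 3. The second was lost without the filter (adjusted p 0.0867) and without 2-mutation replicate 1, 2 or 4 (adjusted p 0.0519 to 0.0668). With the 5-mutation hairpin Plk1 was at 1.61 to 1.96 CPM (log2 0.21, interval -0.12 to 0.54, not called).

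Aurkb (chr11:69045647-69051664), the Aurora kinase of the chromosomal passenger complex that corrects spindle attachments, was close to the limit of counting. Its counts in replicates 1 to 4 were 13, 6, 3 and 11 in the empty-vector group, 0, 5, 6 and 4 for the unmutated, 3, 4, 10 and 9 for the 2-mutation and 9, 15, 15 and 22 for the 5-mutation hairpin. The groups overlap, and the 5-mutation libraries hold the top counts. A count of 0 allows up to 3 counts, or 0.0589 to 0.0893 CPM over the libraries, and covers counting error only. No difference from the empty vector was called (log2 -1.16, -0.53 and 0.74; adjusted p 0.143, 0.419 and 0.217), and the intervals, -2.45 to 0.12, -1.69 to 0.62 and -0.28 to 1.76, are wide. Birc5 (chr11:117849251-117855743) encodes survivin, another passenger protein, and was at 1.22 to 1.37 CPM with the empty vector. It was higher in every library with the unmutated (1.56 to 2.15 CPM) and 2-mutation hairpin (1.89 to 2.33 CPM), by 1.40-fold and 1.60-fold (log2 0.48 and 0.67, adjusted p 0.0224 and 0.000989). The first of these was lost without the low-count filter (adjusted p 0.0869), without empty-vector replicate 4 (0.0535) and without unmutated replicate 2 (0.0971). With the 5-mutation hairpin it was at 1.85, 1.51, 1.22 and 1.30 CPM, where replicates 3 and 4, high for Cdk1, were level with the controls (log2 0.20, adjusted p 0.320).

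Bub1 (chr2:127801122-127831865), a kinase of the spindle checkpoint that holds cells until chromosomes are attached, was at 0.488, 0.447, 0.375 and 0.552 CPM with the empty vector. It was at 1.11, 1.04, 1.22 and 1.35 CPM with the 2-mutation hairpin and at 0.785, 0.863, 0.834 and 1.05 CPM with the 5-mutation hairpin, and all 8 of these libraries were above the controls. The rises were 2.54-fold and 1.89-fold (log2 1.34 ± 0.22 and 0.92 ± 0.23 SE; adjusted p 1.35e-05 and 0.00144). With the unmutated hairpin it was at 0.350, 0.257, 0.461 and 0.227 CPM, which overlaps the controls (log2 -0.52, adjusted p 0.114), and without replicate 3 of that hairpin the fall was called (log2 -0.74, adjusted p 0.0371).

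Mki67 (chr7:135689784-135716361) encodes Ki-67, the coat of mitotic chromosomes that pathologists use to count dividing cells. It was at 0.775, 0.834, 1.17 and 0.960 CPM with the empty vector and at 1.96, 1.18, 2.84 and 3.01 CPM with the 5-mutation hairpin. Replicate 2 of that hairpin lay just above the highest control, and replicates 1, 3 and 4 were well above it. The rise was 2.40-fold (log2 1.24 ± 0.25 SE, adjusted p 0.000223). With the unmutated hairpin Mki67 was at 0.916 to 1.54 CPM and with the 2-mutation hairpin at 0.744 to 1.01 CPM, with log2 differences of 0.41 (interval -0.13 to 0.95) and -0.12 (interval -0.67 to 0.44) that were not called.

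Top2a (chr11:98992943-99024189), the topoisomerase that untangles and condenses chromosomes from S phase on, was at 0.861, 1.70, 0.795 and 1.49 CPM with the empty vector. It was at 1.75, 2.27, 2.46 and 2.45 CPM with the unmutated hairpin, 2.90, 3.47, 2.64 and 3.95 CPM with the 2-mutation hairpin, and 3.05, 2.16, 4.70 and 4.84 CPM with the 5-mutation hairpin. No hairpin library overlapped the controls. The rises were 1.84-fold, 2.68-fold and 3.05-fold (log2 0.89 ± 0.27, 1.43 ± 0.27 and 1.60 ± 0.27 SE; adjusted p 0.0135, 0.000110 and 3.98e-05), and the first was lost without empty-vector replicate 3 (log2 0.72, adjusted p 0.0531).

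Gtse1 (chr15:85859745-85876573) encodes a microtubule-binding protein of G2 and mitosis that also restrains p53, and it stood apart from the other members. It was at 2.15, 3.07, 2.92 and 3.502 CPM with the empty vector and at 3.45, 3.25, 2.84 and 3.89 CPM with the unmutated hairpin. With the 2-mutation hairpin it was at 16.8, 16.4, 17.2 and 15.7 CPM (662 to 788 counts), a group whose spread, 3.90% of its mean, was the smallest of any member in any group. The 2-mutation libraries were 5.69 times as high as the controls (log2 2.50 ± 0.14 SE, adjusted p 1.47e-12) and overlapped no other library. With the 5-mutation hairpin Gtse1 was at 1.72, 1.63, 2.86 and 2.17 CPM, 0.720 times the empty vector (log2 -0.50 ± 0.16 SE, adjusted p 0.0113), although replicates 3 and 4 lay within the control range. That fall was lost when only these 2 groups were fitted (adjusted p 0.0605) and without empty-vector replicate 4 (adjusted p 0.0539). For each Mki67 count, empty-vector libraries held 3.15 ± 0.606 counts of Gtse1 and unmutated-hairpin libraries 2.78 ± 0.709, against 19.4 ± 2.48 with 2 mutations and 0.998 ± 0.283 with 5 (SD, n = 4).

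**Figure D2:**
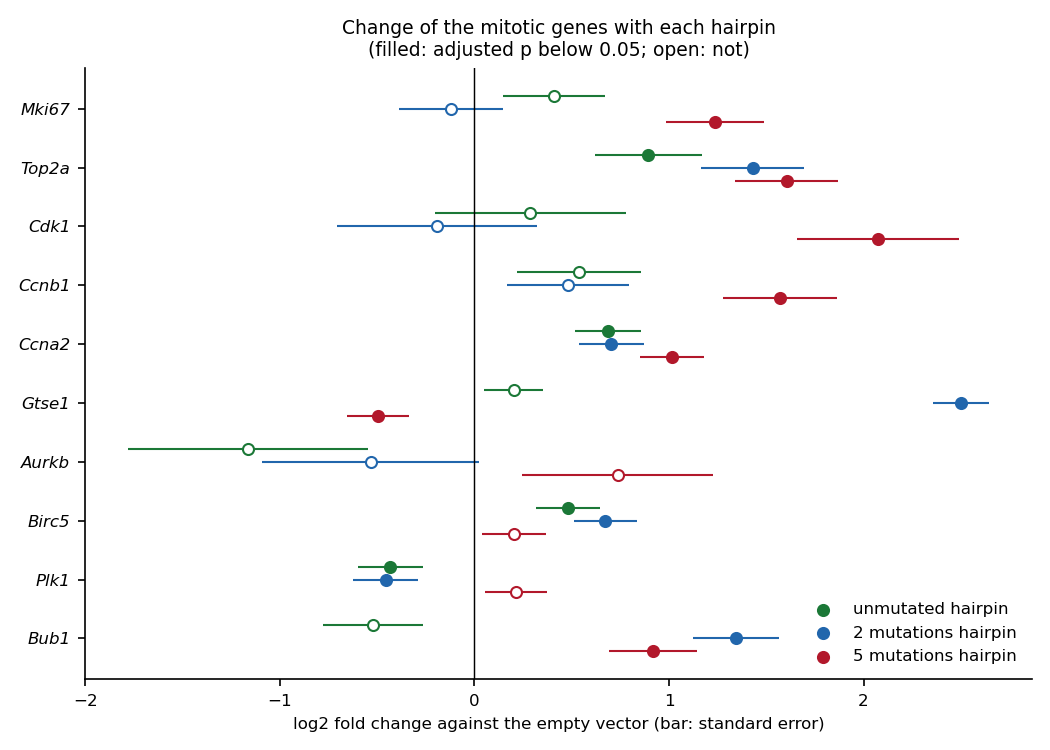
Log2 fold change of each gene against the empty vector for the 3 hairpins, with bars of 1 standard error, filled where the adjusted p was below 0.05. Cdk1, Ccnb1 and Mki67 are filled only for the 5-mutation hairpin, at 2.07, 1.57 and 1.24, and Gtse1 lies at 2.50 with the 2-mutation hairpin and at -0.50 with the 5-mutation hairpin.

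Differences between the hairpins were tested directly. Between the 5-mutation and the unmutated hairpin, 7 members were higher (28.5% of all genes) and 1 was lower (26.8%). The 7 were Cdk1 (log2 1.79, adjusted p 0.000621), Aurkb (1.90, 0.00655), Bub1 (1.44, 1.97e-05), Ccnb1 (1.033, 0.00315), Mki67 (0.83, 0.00613), Top2a (0.71, 0.0209) and Plk1 (0.65, 0.00199), and Gtse1 was the lower one (log2 -0.70, adjusted p 0.000684). Libraries did not overlap for Cdk1, Aurkb, Plk1 and Bub1, 4 of 10 members, beside 23.8% of all genes, and for none did all 4 lie lower (22.9% of genes). The Top2a call was lost without unmutated replicate 1 or 5-mutation replicate 3 or 4 (adjusted p 0.0665 to 0.0810). The Ccna2 difference was 0.33 (interval -0.0011 to 0.65, adjusted p 0.0852).

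Between the 5-mutation and the 2-mutation hairpin, 5 members were higher (33.6% of all genes) and 2 were lower (32.3%). Cdk1 was higher by 2.27, Mki67 by 1.36, Aurkb by 1.27, Ccnb1 by 1.09 and Plk1 by 0.67 log2 units (adjusted p 5.05e-05, 5.36e-05, 0.0328, 0.00144 and 0.00104). Gtse1 was lower by a factor of 7.90 (log2 -3.0 ± 0.15 SE, adjusted p 8.06e-14), and Birc5 was lower (log2 -0.47, adjusted p 0.0123). The Aurkb call, which rests on 9 to 22 against 3 to 10 counts, was lost in DESeq2 (adjusted p 0.0654) and without 2-mutation replicate 1 or 2 or 5-mutation replicate 3 or 4 (adjusted p 0.0566 to 0.124). All 4 libraries of the 5-mutation hairpin were higher for Mki67, Cdk1 and Plk1 (3 members, beside 29% of genes) and lower for Gtse1 and Birc5 (2 members, beside 29.9%). No call separated these hairpins for Top2a (log2 0.17, interval -0.33 to 0.68).

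Between the 2-mutation and the unmutated hairpin, Gtse1 (log2 2.30 ± 0.14 SE, adjusted p 4.36e-12) and Bub1 (log2 1.87 ± 0.23 SE, adjusted p 2.68e-07) were the 2 members called higher, beside 31.5% of all genes. None was called lower in edgeR, at an unadjusted p below 0.05 either, beside 31.2% of all genes, and DESeq2 also called none. All 4 libraries of the 2-mutation hairpin were higher for Gtse1, Bub1 and Top2a (3 members, beside 30.3% of genes) and all lower for 0 members (29% of genes). The Top2a difference was not called (log2 0.54, adjusted p 0.0693), but was without the low-count filter (0.0043) and when these 2 groups alone were fitted (0.00801). Mki67 was at -0.53 (interval -1.07 to 0.01, adjusted p 0.0822), and was called lower with these 2 groups alone (0.02) and without unmutated replicate 1 (0.0434). Cyclin A2, cyclin B1 and Plk1 were within 0.06 log2 units of 0 in this comparison, with intervals of -0.31 to 0.35 for Ccna2, -0.67 to 0.56 for Ccnb1 and -0.37 to 0.33 for Plk1.

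Within the 5-mutation group the libraries differed from each other for most members. For Mki67, Top2a, Cdk1, Ccna2 and Aurkb replicate 4 was highest and replicate 3 second, and the highest library was 2.56, 2.25, 3.14, 1.33 and 2.86 times the lowest. Birc5 went the other way, with replicates 3 and 4 lowest. The coefficient of variation was 37.7% for Mki67, 35.4% for Top2a, 55.7% for Cdk1 and 34.1% for Ccnb1, beside 3.90% for Gtse1 with the 2-mutation hairpin. Per count of Mki67, the 5-mutation libraries had 1.66 ± 0.120 counts of Top2a and 0.492 ± 0.0677 of Ccnb1 (SD, n = 4), with ranges over the 4 libraries of 1.56 to 1.83 and 0.432 to 0.589.

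The same libraries were set beside markers of other cells. Collagen genes, which fibroblasts of the meninges make, were also uneven, and Col1a1, Col1a2, Col3a1, Pdgfra and Pdgfrb were singled out after their values were seen. Col1a1 was at 8.48, 9.08, 58.2 and 13.7 CPM in 5-mutation replicates 1 to 4, beside 2.62 to 6.16 CPM with the empty vector, and replicate 3 was the highest library for Col1a1 in every group. Pdgfra was at 0.588, 0.883, 5.92 and 0.918 CPM and Pdgfrb at 1.13, 0.981, 5.98 and 2.01 CPM in the same 4 libraries. Replicate 4, the highest for Mki67 and Cdk1, was not the highest for these genes. The summed CPM of some marker lists had replicate 2 lowest and replicates 3 and 4 highest in these libraries, as Mki67 did. The progenitor markers summed to 98.2, 61.0, 131.2 and 119.8 CPM, and the astrocyte markers to 562, 477, 686 and 687 CPM. Vessel sums (10.7, 8.57, 19.1 and 14.8) and neuronal sums (7387, 7126, 7738 and 7644) had that order too. The neuronal sums differed little for their size, and what set the order was not tested. Oligodendrocyte sums (93.5, 76.8, 94.2 and 86.9), microglial sums (1.57, 1.33, 2.17 and 1.12) and fibroblast sums (53.2, 63.0, 238 and 72.4) did not have it. Without 5-mutation replicate 3, all 6 rises against the empty vector were called, at log2 1.10 for Mki67, 1.47 for Top2a, 2.04 for Cdk1, 1.45 for Ccnb1, 0.96 for Ccna2 and 0.94 for Bub1. In every run that left out 1 library of these 2 groups the count of higher members was 6.

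**Figure D3:**
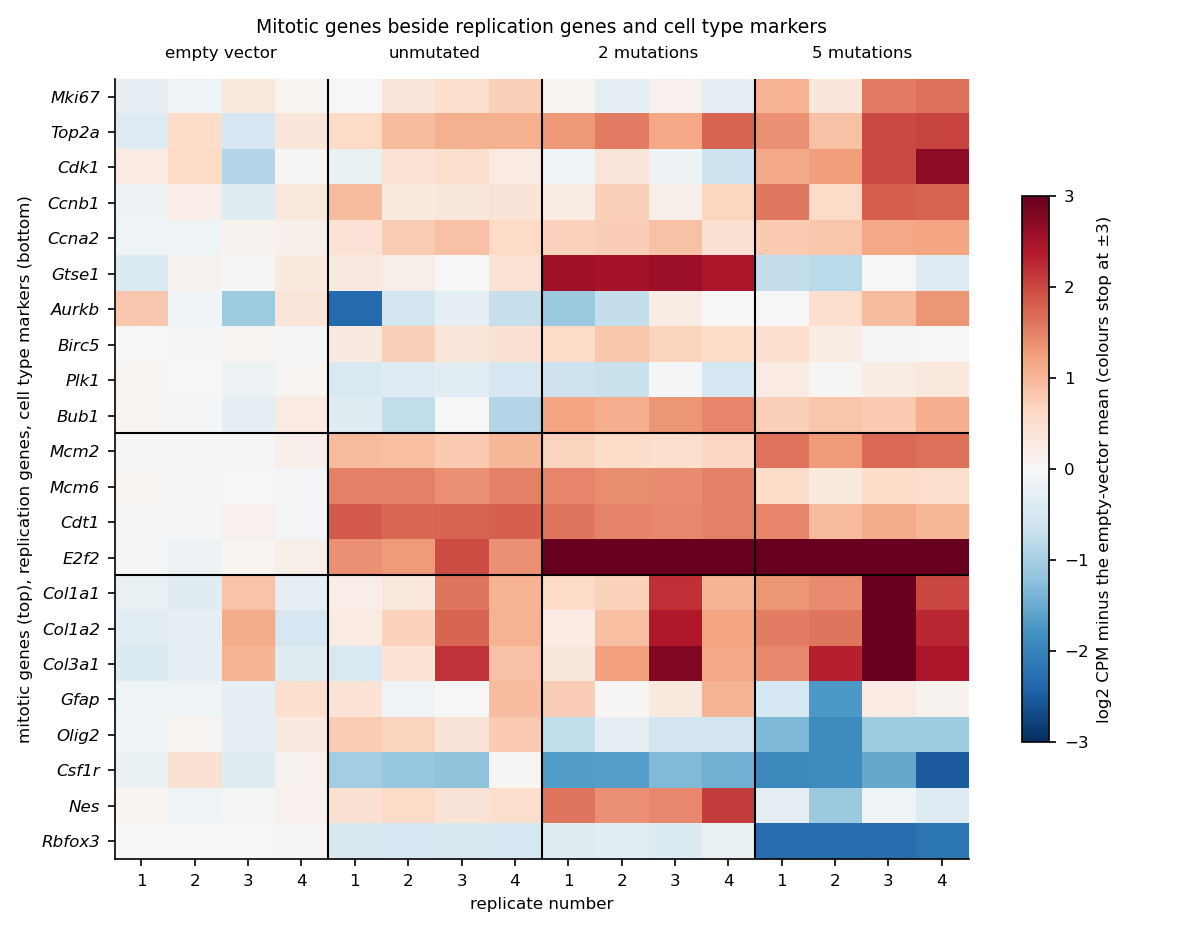
Log2 CPM (with a prior count of 2) minus the empty-vector mean in all 16 libraries, for the 10 mitotic genes, 4 replication genes and 8 cell type genes; colours stop at 3 in either direction. The columns of 5-mutation replicates 3 and 4 are the darkest for Mki67, Top2a and Cdk1, and for the collagen genes replicate 3 is the darkest.

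Whole marker lists were read in the same way, as the summed CPM of each list. For fibroblasts and meninges (10 markers, of which 9 were tested) the sums ran from 74.7 to 87.0 with the empty vector, 54.8 to 81.5 for the unmutated, 72.7 to 110 for the 2-mutation and 53.2 to 238 for the 5-mutation hairpin. Against the empty vector 4 of 9 were higher (44.4%, beside 28.4% of all genes) and 2 lower (22.2%, beside 26.5%) with the 5-mutation hairpin. The 2 were Dcn, which encodes the matrix protein decorin, at 20.5 ± 3.13 and 6.22 ± 2.99 CPM (log2 -1.74, adjusted p 8.21e-05), and Col6a1, a collagen VI chain, at 28.8 ± 2.96 and 19.9 ± 3.50 CPM (log2 -0.53). Fn1, the fibronectin gene, was at 20.7 ± 2.52 and 17.8 ± 13.9 CPM and was not called. For neural progenitors (12 markers) the sums were 104 to 144, 124 to 171, 135 to 197 and 61.0 to 131, with 1 of 12 higher (8.33%) and 3 lower (25%) with the 5-mutation hairpin, neither above the share of all genes. The progenitor fatty acid binding gene Fabp7 was at 45.7 ± 6.502 CPM with the empty vector and 42.4 ± 16.1 with the 5-mutation hairpin, and the glial factor Sox9 at 14.0 ± 2.32 and 9.46 ± 3.30 CPM, neither of them called. Sox2, which keeps progenitors undifferentiated, was at 13.4 ± 1.85 CPM with the empty vector and 7.47 ± 1.44 with the 5-mutation hairpin (log2 -0.85, adjusted p 0.000190), where Mki67 was highest. Nes, an intermediate filament of progenitors and reactive astrocytes, was at 65.2 ± 15.9 CPM with the 2-mutation hairpin, where Gtse1 and Bub1 were highest, beside 20.7 ± 1.62 (log2 1.66, adjusted p 3.61e-06). It was the 1 progenitor marker of 12 called higher with that hairpin (8.33%, beside 32.5% of all genes). Called lower were 2 (16.7%, beside 30.8%), Hes5 (log2 -1.83, adjusted p 7.81e-07) and Fabp7 (log2 -0.67, adjusted p 0.0383). Hes5 was the 1 marker called higher with the 5-mutation hairpin (log2 1.13, adjusted p 6.25e-05).

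Astrocyte sums (10 markers, of which 9 were tested) were 953 to 1173 CPM with the empty vector, 723 to 1051, 730 to 921 and 477 to 687 with the unmutated, 2-mutation and 5-mutation hairpins, and no astrocyte marker was called higher in edgeR with any hairpin (at an unadjusted p below 0.05, 1 with the unmutated hairpin and 0 with the others). Called lower were 2, 5 and 2 of 9 (22.2%, 55.6% and 22.2%, beside 19.5%, 30.8% and 26.5% of all genes). Slc1a2, the main astrocyte glutamate transporter, was lower with every hairpin (log2 -0.65, -0.32 and -0.86), and the related transporter Slc1a3 was called with none (log2 0.34, -0.69 and -0.59). Gfap, the astrocyte filament, was at 52.1, 22.9, 89.1 and 81.6 CPM in the 5-mutation libraries, and as for Mki67 replicates 3 and 4 were the highest. Oligodendrocyte lineage sums (10 markers, of which 6 were tested) were 50.6 to 61.8, 77.0 to 95.7, 39.6 to 45.1 and 76.8 to 94.2 CPM. Of the 6, 4, 0 and 1 were called higher (66.7%, 0% and 16.7%, beside 20.8%, 32.5% and 28.4% of all genes). Lower were 0, 2 and 2 (0%, 33.3% and 33.3%, beside 19.5%, 30.8% and 26.5%). Each count of 0 was also 0 at an unadjusted p below 0.05 in edgeR. Olig2, a transcription factor of the oligodendrocyte lineage, was lower with the 5-mutation hairpin (5.21 ± 0.830 to 2.05 ± 0.520 CPM, log2 -1.36, adjusted p 3.10e-07), as was Olig1, its close relative (log2 -0.97), while the myelin gene Mbp was higher (25.8 ± 2.37 to 68.5 ± 5.62 CPM, log2 1.41, adjusted p 2.78e-14). Endothelial and mural sums (10 markers, of which 7 were tested) were 10.3 to 15.6, 13.8 to 20.4, 9.45 to 12.4 and 8.57 to 19.1 CPM. Of the pericyte genes Rgs5 and Cspg4, the latter also of oligodendrocyte precursors, Cspg4 was higher with the unmutated hairpin (log2 0.76), and no other difference of the pair from the empty vector was called.

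Microglial RNA was nearly missing. Its 10 markers summed to 2.47 to 3.75 CPM with the empty vector and 1.59 to 2.98, 0.939 to 1.35 and 1.12 to 2.17 CPM with the 3 hairpins, and 7 of them (Cx3cr1, C1qa, C1qb, C1qc, P2ry12, Trem2 and Tyrobp) were under 10 counts in every library. Also under 10 counts in every library were Cldn5, Cdh5 and Kcnj8 of the vessel list, Sox10, Gpr17, Mog and Enpp6 of the oligodendrocyte list and Gjb6 of the astrocyte list. No marker was at 0 in all libraries. Csf1r, the receptor that microglia need to survive, was the highest microglial marker and was lower with every hairpin (log2 -0.78, -1.60 and -2.03), and Aif1 was lower with the 2-mutation hairpin (log2 -2.22). Tmem119 was too low to test. Neuronal markers summed to 7460 to 7944 CPM with the empty vector, 6549 to 6767 for the unmutated, 7327 to 7783 for the 2-mutation and 7126 to 7738 for the 5-mutation hairpin. Map2, Syp and Stmn2, which encode neuronal cytoskeleton and synaptic vesicle proteins, were the 3 highest, in keeping with the label, and the libraries of every group also carried glial and fibroblast RNA. Of 10 neuronal markers, 0, 4 and 2 were higher and 7, 5 and 3 lower with the unmutated, 2-mutation and 5-mutation hairpins. As shares 0%, 40% and 20% were higher, beside 20.8%, 32.5% and 28.4% of all genes. Lower were 70%, 50% and 30%, beside 19.5%, 30.8% and 26.5%, and with the 5-mutation hairpin both shares were near the background. No neuronal marker was higher with the unmutated hairpin at an unadjusted p below 0.05 either. Rbfox3, which encodes the neuronal nuclear antigen NeuN and was chosen after its values were seen, was at 150 ± 2.61 CPM with the empty vector and 31.4 ± 0.873 with the 5-mutation hairpin (log2 -2.26, adjusted p 3.78e-20), the group where Mki67 and Cdk1 were highest. The part of these cell types in the levels of the mitotic genes was not tested.

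Other genes of the cell cycle were counted in lists. Of 48 further mitosis genes, 22 were higher and 2 lower with the 5-mutation hairpin, 21 and 8 with the 2-mutation hairpin, and 5 and 3 with the unmutated hairpin, with median log2 fold changes of 0.51, 0.43 and 0.01. Without empty-vector replicate 3 the unmutated hairpin gave 3 higher. As shares these are 45.8% and 4.17%, 43.8% and 16.7%, and 10.4% and 6.25%, beside 28.4% and 26.5%, 32.5% and 30.8%, and 20.8% and 19.5% of all genes. Cdc25b, the phosphatase that removes the brake from CDK1, was at 6.28 ± 0.725 CPM with the empty vector, 21.5 ± 0.998 for the 2-mutation and 26.8 ± 2.14 for the 5-mutation hairpin (log2 1.78 and 2.10; adjusted p 2.05e-14 and 2.59e-15). Nek2, a centrosome kinase, was at 2.31 ± 0.310, 7.84 ± 0.146 and 4.6 ± 0.402 CPM in the same groups (log2 1.77 and 0.998). Spc25, of the kinetochore, and Cks2, a subunit of CDK complexes, rose with the 2-mutation hairpin to 5.66 ± 0.366 and 4.33 ± 0.644 CPM from 1.74 ± 0.275 and 1.38 ± 0.242 (log2 1.70 and 1.66). With the 5-mutation hairpin Cks2 rose (log2 0.91) and Spc25 fell (log2 -0.49), while Spc25 rose with the unmutated hairpin (log2 0.45). Racgap1 and Cdca8, of the central spindle and the passenger complex, rose with the 5-mutation hairpin (log2 0.57 and 0.88). With the 2-mutation hairpin Racgap1 fell (log2 -0.54) and Cdca8 rose (log2 1.09). With the unmutated hairpin Tpx2 and Cdc25c rose (log2 0.54 and 1.08), while Aurka and Cenpa, the spindle kinase and the centromeric histone, fell by 0.79 and 0.79 on the log2 scale. Tpx2 and Cdc25c rose with the 5-mutation hairpin too (log2 0.68 and 1.24). Aurka rose with the 2-mutation and 5-mutation hairpins (log2 0.93 and 1.01), and Cenpa fell with the 2-mutation hairpin (log2 -1.03).

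Replication genes, which act before mitosis, were counted as well. Of 34 S phase genes, 17 were higher and 0 lower for the unmutated hairpin (0 lower at an unadjusted p below 0.05 in edgeR, and 0 in DESeq2), 20 and 4 with the 2-mutation hairpin, and 23 and 2 with the 5-mutation hairpin, with medians of 0.34, 0.53 and 0.65. The shares higher were 50%, 58.8% and 67.6%, beside 20.8%, 32.5% and 28.4% of all genes. Lower were 0%, 11.8% and 5.88%, beside 19.5%, 30.8% and 26.5%. Mcm6, a subunit of the replicative helicase, was at 12.1 ± 0.569 CPM with the empty vector, 33.7 ± 1.63 with the unmutated and 32.9 ± 1.19 with the 2-mutation hairpin (log2 1.48 and 1.45), the 2 groups in which Mki67 and Cdk1 were not called. It was also higher, by less, with the 5-mutation hairpin, at 16.9 ± 1.42 CPM (log2 0.49, adjusted p 7.62e-07). Cdt1, which loads that helicase, rose from 1.93 ± 0.125 to 6.73 ± 0.237 CPM with the unmutated hairpin (log2 1.79, adjusted p 5.40e-11). It rose with the 2-mutation and 5-mutation hairpins too (log2 1.53 and 1.16). E2f2, an activator of S phase genes, was at 0.274 ± 0.0323 CPM with the empty vector, 3.90 ± 0.409 for the 2-mutation and 3.75 ± 0.353 for the 5-mutation hairpin (log2 3.81 and 3.75). For the unmutated hairpin it was at 0.873 ± 0.222 CPM (log2 1.65, adjusted p 2.35e-06). Mcm2 rose most with the 5-mutation hairpin (7.21 ± 0.540 to 21.4 ± 2.72 CPM, log2 1.56), and also with the unmutated and 2-mutation hairpins (log2 0.91 and 0.58). The helicase gene Mcm5 rose with the unmutated, 2-mutation and 5-mutation hairpins (log2 1.26, 1.58 and 1.495). So did Fen1, which trims Okazaki fragments (log2 0.60, 1.53 and 0.93).

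**Figure D4:**
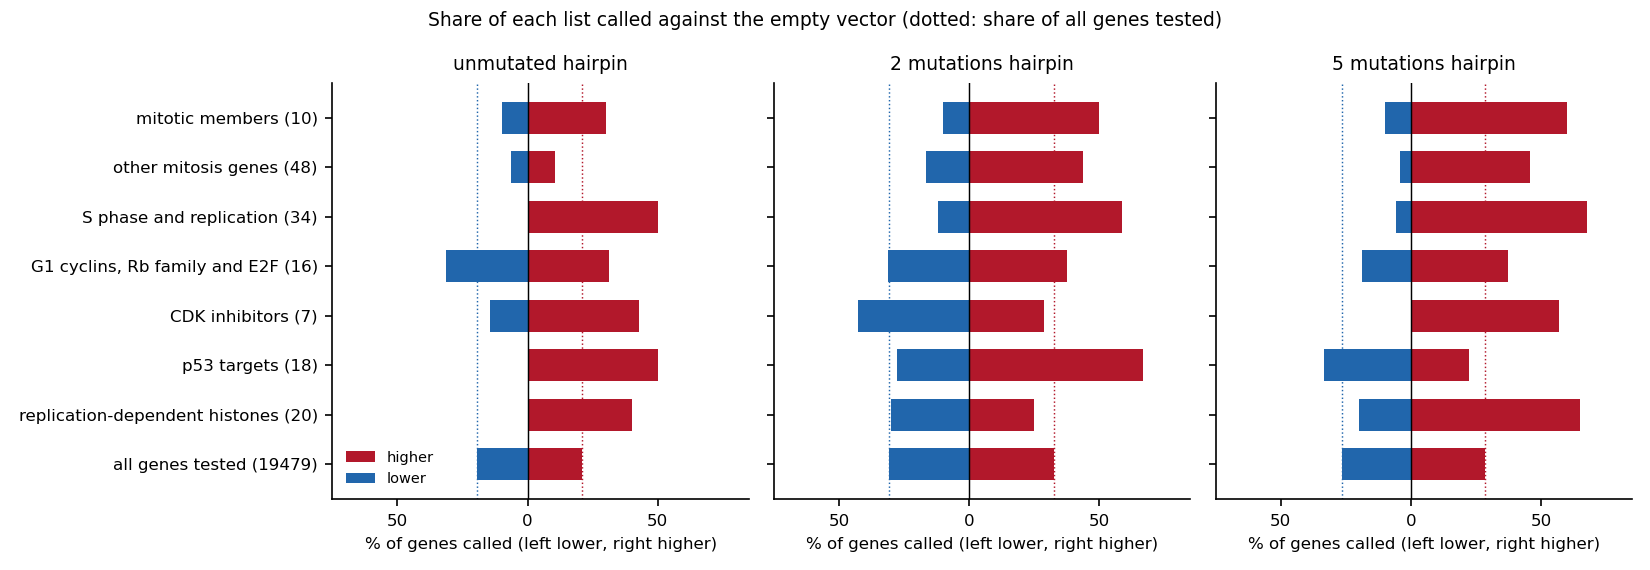
Percent of each list's tested genes called higher (right) and lower (left) against the empty vector for the 3 hairpins, with the share of all 19479 genes as dotted lines. The S phase list reaches 50% higher with the unmutated hairpin, where the other mitosis genes reach 10.4%, and 67.6% with the 5-mutation hairpin, where they reach 45.8%.

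Regulators of entry into the cycle were counted next. Of 16 tested G1 cyclin, Rb family and E2F genes (E2f8 was too low to test), 5, 6 and 6 were higher and 5, 5 and 3 lower with the unmutated, 2-mutation and 5-mutation hairpins. These shares, 31.2%, 37.5% and 37.5% higher and 31.2%, 31.2% and 18.8% lower, stand beside 20.8%, 32.5% and 28.4% higher and 19.5%, 30.8% and 26.5% lower over all genes. With the 2-mutation hairpin both shares were near the background. Ccnd2, a D-type cyclin of G1, fell from 285 ± 22.5 to 93.1 ± 21.03 CPM with the 2-mutation hairpin (log2 -1.61, adjusted p 2.79e-07), and E2f3 rose from 31.9 ± 2.39 to 75.2 ± 4.74 CPM (log2 1.24). E2f7, a repressor of the program, rose with the 5-mutation hairpin from 0.570 ± 0.0674 to 2.03 ± 0.280 CPM (log2 1.84, adjusted p 1.57e-07). Among 7 CDK inhibitors, 3, 2 and 4 were higher and 1, 3 and 0 lower (the last with 0 at an unadjusted p below 0.05 in edgeR and 0 in DESeq2). Of this short list 42.9%, 28.6% and 57.1% were higher, beside 20.8%, 32.5% and 28.4% of all genes. Lower were 14.3%, 42.9% and 0%, beside 19.5%, 30.8% and 26.5%. The share higher with the 2-mutation hairpin and the share lower with the unmutated hairpin did not exceed the background. Cdkn1c, which encodes p57, was at 0.953 ± 0.197 CPM with the empty vector, 2.87 ± 0.578 for the unmutated, 0.513 ± 0.153 for the 2-mutation and 5.09 ± 0.347 for the 5-mutation hairpin (log2 1.58, -0.90 and 2.41), so that it was highest where Mki67 and Cdk1 were highest. Cdkn1b, which encodes p27, fell with the 2-mutation hairpin from 91.6 ± 5.59 to 47.9 ± 0.465 CPM (log2 -0.94).

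Targets of p53, the protein that GTSE1 binds, were counted too. Of 18, 9 were higher and 0 lower with the unmutated hairpin (0 lower at an unadjusted p below 0.05 in edgeR, 0 in DESeq2), 12 and 5 with the 2-mutation hairpin, and 4 and 6 with the 5-mutation hairpin. The shares higher were 50%, 66.7% and 22.2% (20.8%, 32.5% and 28.4% of all genes) and lower 0%, 27.8% and 33.3% (19.5%, 30.8% and 26.5%), so those with the 5-mutation hairpin were near the background. Cdkn1a, which encodes the CDK inhibitor p21 and is in both lists, rose with the unmutated and 2-mutation hairpins from 91.1 ± 5.71 to 166 ± 9.82 and 177 ± 14.7 CPM (log2 0.87 and 0.96). Mdm2, which degrades p53, rose with the 2-mutation hairpin (log2 0.73, adjusted p 6.23e-12), where Gtse1 was highest. It also rose, by less, with the unmutated hairpin (log2 0.24, adjusted p 0.00026), where Gtse1 was not called. Ccng1 fell with the 5-mutation hairpin from 114 ± 6.70 to 23.2 ± 4.18 CPM (log2 -2.31, adjusted p 3.92e-11) and Zmat3 from 213 ± 8.52 to 95.4 ± 5.01 CPM (log2 -1.16). Of 20 replication-dependent histone genes, whose RNA is made in S phase, 8, 5 and 13 were higher and 0, 6 and 4 lower; these genes are near-identical copies, so their counts are uncertain, and 13 were higher with the unmutated hairpin when it and the empty vector alone were fitted (in the main count for it, 0 lower at an unadjusted p below 0.05 in edgeR and 0 in DESeq2). As shares 40%, 25% and 65% were higher and 0%, 30% and 20% lower, beside the same all-gene shares, and with the 2-mutation hairpin neither exceeded them. Hist1h1a rose in all 3 comparisons, from 5.09 ± 0.593 CPM to 6.98 ± 0.591, 8.25 ± 0.664 and 9.83 ± 1.002 CPM (log2 0.45, 0.69 and 0.95). Others were mixed. Hist1h2bc rose with the 2-mutation hairpin from 33.5 ± 1.92 CPM (log2 1.60) and fell with the 5-mutation hairpin (log2 -0.53). Hist2h4 rose with the unmutated hairpin (log2 0.44) and fell with the 2-mutation and 5-mutation hairpins (log2 -0.47 and -0.21).

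The genes most like each responding member were found by the root mean square difference in log2 CPM, centred on the empty-vector mean, over the 12 hairpin libraries, among 10798 tested genes whose log2 CPM averaged 2 or more. Those for Top2a were Mcm5 (difference 0.371), Klhl13 (0.392) and Nfatc3 (0.400). Mki67 was most like Shc1 (0.317), Cbfb (0.326) and Insm1 (0.344), Ccnb1 like Nxn (0.316), Tap1 (0.328) and Rell1 (0.346), and Ccna2 like Ptpn9 (0.201), Cln6 (0.201) and Arl6ip6 (0.202). For Cdk1 they were Kcnj2 (0.445), Slc17a8 (0.471) and Zdbf2 (0.475), for Gtse1 Neurod1 (0.448), Lgals3bp (0.460) and Prkd1 (0.468), and for Bub1 Prkx (0.226), Samd10 (0.250) and Zfas1 (0.270). Mcm5 is the one replication gene among those named. Mki67, Top2a, Cdk1, Ccnb1, Ccna2, Aurkb, Birc5, Plk1 and Bub1 lay below the floor of 2, as did other mitosis genes of such low counts. None of these could be named here, so their absence says nothing about likeness among mitosis genes. The difference for Cdk1 and Gtse1 was larger than for the other members. Neurod1, nearest to Gtse1, had log2 fold changes of 0.29, 1.90 and -0.24, beside 0.20, 2.50 and -0.50 for Gtse1.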

How the data were processed

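RNA of 16 libraries was sequenced after depletion of ribosomal RNA; directional libraries were made from 100 ng of total RNA with dUTP and 12 PCR cycles, per the labels' protocols. The deposited table holds raw counts per Ensembl gene. The authors ran, per the submitters' processing notes, Trim Galore 0.6.0, cutadapt 1.15, STAR 2.7.2b on GRCm38.p6 and featureCounts; the strand setting and annotation release are not given in the sources used here. Symbols and positions came from the GENCODE M21 annotation of GRCm38 (55154 of 55335 identifiers matched), promoter windows from RefSeq.

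Counts were filtered with filterByExpr, scaled with TMM and fitted in edgeR 4.0.16 by robust quasi-likelihood, with 1 coefficient for each group over all 16 libraries. All pairwise contrasts were tested 2-sided, with Benjamini-Hochberg adjustment over all genes tested, and intervals are 95%. The code was tested on simulated data. Within groups, chi-square tests of pairs of libraries gave 3.27 to 22.2 per degree of freedom, above counting noise. Each library was taken as 1 replicate, but such spread does not show that libraries are separate cultures.

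Alternatives were RLE scaling, DESeq2 1.42.0, no filter, fits of 2 groups alone, a replicate block, the fit without Gm26917 and Gm42418, and leaving out each library. The members, the gene lists and the tests were chosen with earlier results of these data known. All 10 members are named; from each other list, up to 4 genes with the smallest p in each contrast with the empty vector; from each marker list, the 3 of highest mean. Some genes of the S phase, G1, CDK inhibitor, p53 and histone lists chosen in this way are not named. Genes outside this rule are Rbfox3, Sox2, Hes5, the type I and III collagen genes, Pdgfra and Gtse1's neighbours, chosen after their values were seen. Exosc9, also outside it, was read for its exon overlap with Ccna2. Pdgfrb falls within the rule, but its values by library were singled out after they were seen.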

Additional observations from a re-analysis of the deposited data

Results flagged for a closer look

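Among the 40 sets of 4 libraries given by the 10 genes and 4 groups, 1 held a library far from the other 3. With the unmutated hairpin, Ccnb1 was at 0.728 CPM in replicate 1 and at 0.444 to 0.479 CPM in replicates 2 to 4, a gap of 0.876 of the whole range, above Dixon's 95% limit for 4 values. In counts this is 27 against 18 to 19. Chance alone flags about 1 in 20 such sets.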

How the results depend on the processing

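The counts of members higher than the empty vector stayed at 5 and 6 with the 2-mutation and 5-mutation hairpins under every alternative, and ran from 2 to 3 with the unmutated hairpin. Counts of lower members rest on 1 or 2 genes. Against the empty vector they were 0 with the unmutated hairpin in DESeq2 and without the low-count filter, 0 with the 2-mutation hairpin without the filter, and 0 with the 5-mutation hairpin when 2 groups alone were fitted. Between the 2-mutation and unmutated hairpins 1 was lower when 2 groups alone were fitted, where 8 of the 10 members could be tested. Between the mutated hairpins 1 was lower without the filter. Leaving out 1 library gave 0 to 1 lower for each hairpin against the empty vector and for the 2-mutation against the unmutated hairpin, and 1 to 2 for the 5-mutation against the unmutated hairpin.

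The labels do not say that replicate numbers pair the libraries, and not every same-numbered pair correlated above 0.1 (12 of 24, range -0.02 to 0.27), so no block was used; that 11 of 16 libraries were closest to their own number is a hint of pairing from the data, not the design. With the replicate block, 47 of 48 counts stayed within 1.5 times, and 1 member was lower with the 2-mutation than the unmutated hairpin, Mki67 (adjusted p 0.0425); Top2a was then higher (0.0415).

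In the lists, fits of 2 groups alone gave 0 other mitosis genes lower with the 5-mutation hairpin and 13 histones higher and 1 lower with the unmutated hairpin, where no filter also gave 1 lower. Without Gm26917 and Gm42418, 1 CDK inhibitor was higher with the 2-mutation hairpin. Leaving out 1 library gave, with the unmutated hairpin, 3 to 6 other mitosis genes higher, 3 to 5 G1 genes lower, 0 to 1 CDK inhibitors lower and 0 to 1 p53 targets lower. It gave 1 to 2 CDK inhibitors higher with the 2-mutation hairpin, and 0 to 2 other mitosis genes and 2 to 5 histones lower with the 5-mutation hairpin.

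Of 832 recomputed member fold changes 779 kept direction and side of the threshold, 28 lost and 9 gained the call, and 16 changed sign, all of them uncalled and near 0. Leaving out 1 library, Mki67 with the 2-mutation hairpin ran from -0.198 to 0.0138 (log2), Cdk1 from -0.0161 to 0.55 with the unmutated and from -0.495 to 0.0700 with the 2-mutation hairpin. Between the 2-mutation and unmutated hairpins, Ccnb1 ran from -0.159 to 0.131, Ccna2 from -0.0590 to 0.0945 and Plk1 from -0.190 to 0.0487, and Ccna2 was at -0.0195 with 2 groups alone and -0.0104 without Gm26917 and Gm42418. Sox2 with the unmutated hairpin ran from -0.0180 to 0.168. The causes of these differences were not tested. At 0 to 51 counts for Cdk1 and Aurkb, depth limits what can be seen.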

Other observations

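Genes beside Gtse1 on chromosome 15 were read after its values were seen. With the 2-mutation hairpin, where Gtse1 was 5.69 times the empty vector, Ttc38, on the same strand across a gap of 922 bp, went from 3.32 to 4.33 CPM (log2 0.38, edgeR adjusted p 0.0198), and Trmu, on the same strand across 2738 bp, from 8.90 to 10.4 CPM (log2 0.23, adjusted p 0.0139). Celsr1 and Pkdrej, both on the opposite strand, were lower: Celsr1 went from 10.9 to 5.14 CPM (log2 -1.08, adjusted p 0.000120) and Pkdrej from 0.290 to 0.106 CPM (log2 -1.45, adjusted p 0.0157). None of these 4 neighbours rose by as much as Gtse1.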
